A study of Mus musculus with 19 samples.

Results

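The genes described here encode the enzymes of oxidative phosphorylation. They were chosen by symbol, as every row of the deposited tables that starts with Nduf, Uqcr, Atp5 or Cox4 to Cox8, together with Sdha, Sdhb, Sdhc, Sdhd, Cyc1 and Cycs. The rule took 92 of 23284 rows in the first table. By the start of the symbol alone, 42 were counted under complex I, 4 under complex II and 10 under complex III. Cycs, the gene of soluble cytochrome c, is counted under complex III and among the structural rows below. Another 19 were counted under complex IV and 17 under complex V. These counts by complex include rows that are not structural subunits. In all, 83 rows were structural subunits, and the other 9 were Ndufaf1, Ndufaf2, Ndufaf3 and Ndufaf4, which are assembly factors, and Atp5s, Atp5sl, Cox4nb, Cox7a2l and Ndufa4l2, whose symbols resemble those of subunits. The tables held 0 rows for the subunits that mitochondrial DNA encodes, so those are not analysed here.

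The study converted mouse embryonic fibroblasts (MEFs) into epithelial cells and asked whether tissue grown from them resembles prostate. Total RNA was sequenced from 7 renal grafts, 6 prostates and 6 MEF cultures, all on the C57BL/6 strain. The MEFs came from mid-gestation embryos and carried a heterozygous targeted lacZ allele. The prostates were wild-type tissue of mice aged 6 weeks, with no cell type sorted out. For the grafts, fibroblasts were primed with retroviral pluripotency factors, grown in basal epithelial medium, combined with rat urogenital mesenchyme and grown for 6 weeks under the kidney capsule of male nude mice, whose androgen was raised with testosterone pellets. A graft library can therefore also hold RNA of the host kidney, of other host tissue and of rat cells. A total of 5 grafts stood in the first deposited table, with the prostates and MEFs, and the study names them iEpt+NAF for lentiviral prostate regulators added to the induced epithelial cells. The grafts FS022 and FS023 stood in a second table and were induced epithelial cells without those regulators by elimination. Table and condition cannot be told apart for them. Below, "the grafts" are the 5 of the first table, and FS022 and FS023 are given beside them without a test.

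Oxidative phosphorylation makes most of the ATP of a resting tissue. Complex I (NADH dehydrogenase) and complex II (succinate dehydrogenase) feed electrons into the inner mitochondrial membrane, complex III and cytochrome c pass them on, complex IV (cytochrome c oxidase) hands them to oxygen, and complex V (ATP synthase) uses the resulting proton gradient. Kidney proximal tubule and striated muscle are known for dense mitochondria, and several complex IV subunits have a form used mainly in heart and skeletal muscle. The transcription factors NRF1, GABPA, YY1 and ERRalpha, with the coactivator PGC-1alpha, are known regulators of these nuclear genes.

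Binding sequences of those regulators near the start sites are a feature that the symbol rule did not use. RefSeq promoters (GRCm38.p6, 250 bases before to 50 after a gene's start) were matched to 75 of the 92 members and read on both strands. The NRF1 motif, GCGCA and GCGC with any 1 base between them, lay in 18 of 75 member promoters (24%), against 5.19% of 27025 promoters of all genes. The ETS motif of GABPA, CCGGAAG, lay in 22.7% of member promoters and 9.93% of all, and the YY1 motif AAGATGGC in 14.7% and 3.19%. The ERRalpha motif TCAAGGTCA was found in 2 members (2.67%, against 0.466% of all), Sdhd and Atp5g3. The muscle E-box CAGCTG was found in 6 members (8%), fewer than the 18.3% of all promoters. Each motif was counted on its own, also where it overlapped another. A match is a description of the letters and does not show that a factor binds there. The windows below each hold 30 bases and are written 5′ to 3′ on the strand of the gene, with the match, or its reverse complement, in capitals. They show an NRF1 match in each complex, both ERRalpha matches, and the E-box in a gene of the muscle form, Cox8b.
Ndufa5 (complex I), NRF1, chr6:24527697-24527726, minus strand: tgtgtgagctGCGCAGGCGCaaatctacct
Sdhd (complex II), NRF1, chr9:50603909-50603938, minus strand: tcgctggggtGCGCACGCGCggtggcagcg
Uqcrc1 (complex III), NRF1, chr9:108936668-108936697, plus strand: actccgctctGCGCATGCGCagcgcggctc
Cox6a1 (complex IV), NRF1, chr5:115349056-115349085, minus strand: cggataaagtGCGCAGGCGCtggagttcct
Atp5c1 (complex V), NRF1, chr2:10080430-10080459, minus strand: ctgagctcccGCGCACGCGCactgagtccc
Sdhd (complex II), ERRalpha, chr9:50603800-50603829, minus strand: tttccgggttgtagagTGACCTTGAgccct
Atp5g3 (complex V), ERRalpha, chr2:73911359-73911388, minus strand: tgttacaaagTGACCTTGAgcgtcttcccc
Cox8b (complex IV), E-box, chr7:140900448-140900477, minus strand: tgtgacaggagaCAGCTGcagctctccacc

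The libraries of the first table held an estimated 16767286 to 26152338 reads on genes, and FS022 and FS023 held 6629662 and 9662056. Values are log2 scale, and a value of 3 reads, the floor used here, came to 1.68 to 2.34 in the first table, 3.12 in FS022 and 2.70 in FS023. The prostate secretion markers averaged 16.96 to 17.76 in prostate and 6.10 to 8.70 in the grafts, while the fibroblast markers averaged 15.10 to 15.46 in MEFs. All 12 kidney markers passed the floor in each of the 5 grafts, and their mean ran from 6.20 in FS003 to 12.61 in FS008, against 0.61 to 2.97 in prostate. The skeletal muscle markers averaged 12.56, 11.66 and 11.56 in FS002, FS003 and FS005, but 5.17 in FS007 and 4.40 in FS008. The MEF libraries were alike in pairs, with deviations from the group mean that correlated at 0.94 (FS017 and FS018), 0.93 (FS015 and FS020) and 0.88 (FS016 and FS019). FS015 to FS018 held prostate transcripts. Their secretion markers averaged 8.51, 6.74, 7.19 and 6.67, within the range of the grafts, against 0.72 in FS019 and -0.05 in FS020. Nothing in the labels says that samples of a group came from separate animals or cultures, so p-values measure the spread between these samples only. In bulk tissue, more cells of a type and more RNA per cell cannot be told apart.

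The share of all reads that fell on the 92 genes was 1.40% in graft FS002, 1.29% in FS003, 1.41% in FS005, 1.28% in FS007 and 1.88% in FS008. It was 0.828% to 0.938% in prostate, with a median of 0.872%, and 0.610% to 0.633% in MEFs, with a median of 0.624%. FS022 and FS023 stood at 0.874% and 1.02%. The 3 groups of the first table did not overlap, and FS008 stood above the other grafts. A share of reads also falls where other transcripts take more of a library. The prostate secretion markers averaged 16.96 to 17.76 in prostate and 6.10 to 8.70 in the grafts. The gap in share between grafts and prostate is therefore not by itself a measure of level per gene, which is given below. The part of secretion transcripts in it was not tested.

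The mean log2 level was taken over 75 structural members that passed 3 reads in every sample and are not tissue forms. It overlapped between grafts and prostate. The grafts gave 10.46, 10.38, 10.46, 10.38 and 10.90. Prostate averaged 10.36 ± 0.05 (SD, n = 6), and the MEFs 9.62 ± 0.06 (SD, n = 6). FS022 and FS023, brought to the scale of the first table by a shift of under 0.13, gave 10.13 and 10.36. For complex I, the grafts stood at 10.10, 9.97, 10.07, 9.91 and 10.39, around the prostate mean of 10.06 ± 0.05 (SD, n = 6), and the MEFs at 9.22 ± 0.07 (SD, n = 6). For complex II, each of the 5 grafts stood above every prostate, with 11.61, 11.70, 11.86, 11.52 and 12.30 against 11.31 ± 0.09 (SD, n = 6). For complexes III, IV and V, FS008 gave 11.33, 11.37 and 11.15, while the other grafts lay at 10.55 to 10.67, 10.78 to 10.95 and 10.64 to 10.66. Each graft lay above every prostate for complexes III and V too, by less (10.55 against 10.53 and 10.64 against 10.62 for the nearest samples), and the groups overlapped for complex IV. The prostate means of these complexes were 10.43, 10.69 and 10.54, and the MEF means 9.64, 10.00 and 9.95. MEFs were the lowest group of the first table in each of the 5 complexes, with no overlap.

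**Figure D1:**
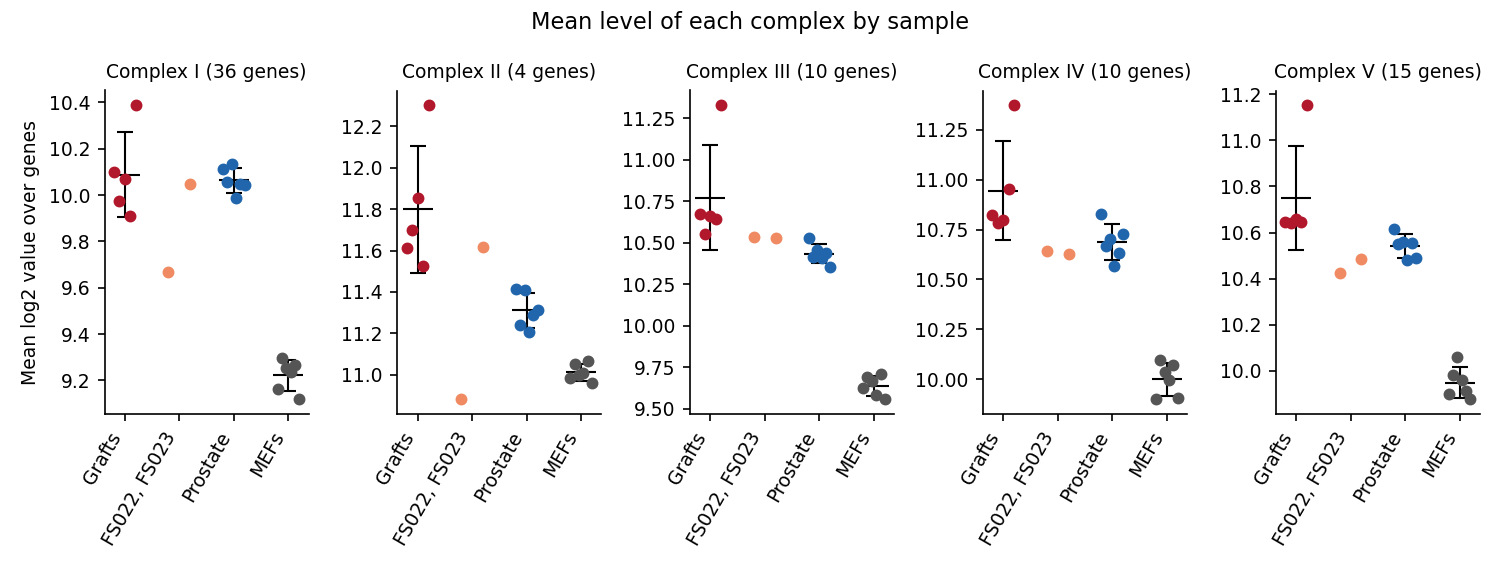
Mean log2 level of the ubiquitous members of each complex (vertical axis, not starting at 0) in each sample, by group; horizontal bars show the group mean and error bars 1 SD, and no mean is drawn for FS022 and FS023, which come from a separately normalized table. The MEFs lie lowest in the first table in every panel, and FS008 is the highest graft, at 11.33 for complex III.

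Against MEFs, the genes of all 5 complexes were higher in the grafts. Of 89 members that passed the filter on low values, 82 were higher at an adjusted p under 0.05 in limma and 1 was lower, where 40.2% of all 16121 genes tested were higher and 25.4% lower. The median log2 fold change was 0.84 for the members and 0.26 for all genes. With a log2 fold change of at least 1 required as well, 30 members were higher and 0 lower, beside 29.9% and 12% of all genes. The groups did not overlap, with every graft above every MEF sample, for 72 members, beside 28.4% of all genes. With the alike MEF libraries averaged in pairs, 72 members were higher and 0 lower. The shares of all genes above are of the fit with separate MEF libraries, so this count cannot be set beside them. By complex, 37 of 41 tested genes of complex I were higher, 4 of 4 of complex II, 10 of 10 of complex III, 16 of 17 of complex IV and 15 of 17 of complex V. Among the 16 of complex IV are Cox4i2, Cox6a2 and Cox8b, which passed the filter on low values only through grafts where they are high. Complex III had the highest median of the 5 complexes, 1.21.

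Cyc1, the cytochrome c1 subunit of complex III (NCBIM37 chr15:76173953-76176364, plus strand), was 11.80, 11.66, 12.05, 11.79 and 12.59 in the grafts and 10.54 to 10.71 in MEFs, with a median of 10.59. Every graft lay above every MEF sample. Its log2 fold change was 1.37 (SE 0.15, adjusted p = 1.25e-05 in limma), and the exact permutation p was 0.00433, the smallest that 5 against 6 samples can give. The small complex III subunits Uqcr10 and Uqcr11 were higher by 1.60 and 1.44, though 54.8% of the 32-base words of the Uqcr11 transcript occur elsewhere in the genome. Of the structural complex I genes, the accessory subunit Ndufa6 had the largest difference. It stood at 10.69, 10.59, 10.92, 10.17 and 10.82 in the grafts against a median of 8.90 in MEFs, a difference of 1.76 (SE 0.13, adjusted p = 1.02e-06 in limma). In complex II the largest difference was that of Sdhd, a membrane anchor, at 1.20, and the smallest that of the flavoprotein Sdha, at 0.45. In complex V, Atp5e, the epsilon subunit of the F1 head, was higher by 1.34 (SE 0.11, adjusted p = 1.96e-06 in limma), while the membrane ring gene Atp5g2 differed by 0.03. All of the 32-base words of the Atp5g2 transcript occur elsewhere in the genome, so its level is uncertain. The lower gene was the assembly factor Ndufaf2, at 7.51 to 7.70 in the grafts and 7.82 to 8.28 in MEFs, with a log2 fold change of -0.48 (adjusted p = 0.00602 in limma), a call that was lost when the alike MEF libraries were averaged in pairs. Ndufs1, the largest subunit of complex I, which carries iron-sulfur clusters, did not pass the test, at 0.27 (adjusted p = 0.19 in limma).

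Most members were likewise higher in prostate than in MEFs. Of 86 members tested, 72 were higher and 2 lower, where 44.9% and 35.9% of 14560 genes were. The median was 0.67, against 0.17 for all genes, and 25 members were higher with a log2 fold change of at least 1 (27.8% of all genes). With the MEF libraries averaged in pairs, 70 were higher and 2 lower, a fit to which the shares above do not belong. The count was 34 higher and 2 lower of 41 in complex I, 3 of 4 higher in complex II, 9 of 10 in complex III, 12 of 14 in complex IV and 14 of 17 in complex V. The largest difference was that of Ndufa1, a small accessory subunit of complex I encoded on the X chromosome (NCBIM37 chrX:34727583-34731158). It stood at 10.44 to 10.86 in prostate, with a median of 10.58, and at 7.87 to 8.30 in MEFs, with a median of 8.09. The fitted difference was 2.50 (SE 0.09, adjusted p = 6.64e-11 in limma). Ndufa6 was higher by 2.06, Cox7a2l by 1.76, Uqcr11 by 1.65, Atp5e by 1.60 and Ndufa7 by 1.55. Cox7a2l acts in joining complexes III and IV into supercomplexes.

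Ndufs1 went the other way. It stood at 10.19 to 10.43 in prostate, with a median of 10.27, and at 10.75 to 10.91 in MEFs, with a median of 10.80, without overlap. It was the 1 member that lay lower in every prostate than in every MEF sample, where 29.3% of all genes did, and 67 members lay higher in this way, beside 37.4% of all genes. It was lower in prostate by a log2 fold change of -0.54 (SE 0.05, adjusted p = 7.26e-07 in limma). The other lower gene was Ndufaf2, at -0.28. Another 12 members did not pass the test, among them Sdha at 0.00 (SE 0.07), the ATP synthase beta subunit Atp5b at -0.13 (SE 0.06) and the complex III core protein Uqcrc1 at -0.08 (SE 0.07). Cox5a, a subunit of complex IV, stood at -0.06.

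Grafts and prostate, both set against MEFs above, share those MEF samples, so the direct comparison of the 2 tissues is given on its own. Of 89 members tested, 34 were higher in the grafts and 12 lower, where 31.3% of 16353 genes were higher and 24.3% lower. The share of members that were higher, 34 of 89, was thus not far from that of all genes, and the median was 0.19 against 0.11. Every graft lay above every prostate for 28 members, beside 19.8% of all genes, and below every prostate for 9, beside 17.3%. The complexes differed from each other. Complex II had 3 of 4 genes higher, complex III 5 of 10, complex IV 6 of 17 and complex V 9 of 17, with 0, 0, 1 and 2 lower. Complex I had 11 higher and 9 lower of 41. With a log2 fold change of at least 1 required, 4 members were higher (Cox6a2, Cox8b, Cox7a1 and Cyc1) and 3 lower (Ndufa1, Cox7a2l and Ndufa7), beside 23% and 10.3% of all genes. Cox6a2 and Cox8b, also counted under complex IV, passed the filter on low values only through grafts where they are high.

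Among the genes that were higher, Uqcrc1, a core protein of complex III, was 12.35, 12.32, 12.33, 12.36 and 12.95 in the grafts and 11.41 to 11.53 in prostate, with a median of 11.48. Its difference was 0.99 (SE 0.11, adjusted p = 3.45e-05 in limma). FS008 stood apart above the other 4, and even the lowest graft lay above every prostate. Cyc1, with the graft values given above, was 10.85 to 11.08 in prostate, a difference of 1.02 (SE 0.15, adjusted p = 0.000171 in limma). Cycs, soluble cytochrome c, was higher by 0.93 in the deposited values but stood at -0.17 after quantile normalization, and 41.1% of its transcript's 32-base words occur elsewhere in the genome. Sdhd was 11.46, 11.78, 11.75, 11.85 and 12.46 in the grafts and 10.83 to 11.22 in prostate, a difference of 0.83 (SE 0.15, adjusted p = 0.000881 in limma). Sdhb, the iron-sulfur subunit, was higher by 0.55 and Sdha by 0.45, and the anchor Sdhc stood at 0.12 without passing.

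Ndufs1, the subunit below the MEFs in prostate, was 10.80, 10.68, 11.05, 11.08 and 11.85 in the grafts, each above the highest prostate at 10.43. The difference was 0.81 (SE 0.18, adjusted p = 0.00243 in limma). The grafts and the MEFs, at 10.75 to 10.91, overlapped for this gene. Atp5b was 14.53 to 15.62 in the grafts, with a median of 14.79, and 14.15 to 14.28 in prostate, a difference of 0.71 (SE 0.18, adjusted p = 0.00533 in limma). Its partner in the F1 head, Atp5a1, was higher by 0.66 and the stalk gene Atp5o by 0.67. Cox5a was 11.43, 11.43, 11.47, 12.03 and 12.28 in the grafts against 10.78 to 10.92 in prostate, a difference of 0.90 (SE 0.16, adjusted p = 0.000526 in limma). Here FS007 and FS008, the grafts with little muscle RNA, were the highest. Cox5b was higher by 0.59 and Cox6b1 by 0.25 (adjusted p = 0.00386 and 0.037 in limma), with every graft above every prostate. The ubiquitous complex IV genes Cox4i1, Cox6a1, Cox7a2 and Cox8a did not pass, at 0.09, 0.28, 0.23 and 0.10. Cox6c, Cox7b and Cox7c did not pass either.

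The genes that were lower were mostly small accessory subunits of complex I. Ndufa1 was 9.44, 9.27, 9.45, 8.97 and 9.73 in the grafts, below every prostate and above every MEF sample. It was lower than in prostate by a log2 fold change of -1.23 (SE 0.13, adjusted p = 1.82e-05 in limma). Ndufa7 (NCBIM37 chr17:33961536-33975261, plus strand) was 10.22, 10.11, 9.94, 9.88 and 9.97 in the grafts, 11.02 to 11.15 in prostate and 9.29 to 9.69 in MEFs, so that the grafts again lay between. Its difference from prostate was -1.05 (SE 0.08, adjusted p = 1.36e-06 in limma). Ndufa2 stood at -0.65, Ndufv3 at -0.51, Ndufa3 at -0.45, Ndufb11 at -0.43, Ndufa13 at -0.34 and Ndufb10 at -0.27, and all passed. The others were Atp5e at -0.26 and 3 rows that are not structural, Cox7a2l at -1.07, Atp5s at -0.79 and the assembly factor Ndufaf3 at -0.61. Of the Cox7a2l transcript, 65% of the 32-base words occur elsewhere in the genome.

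**Figure D2:**
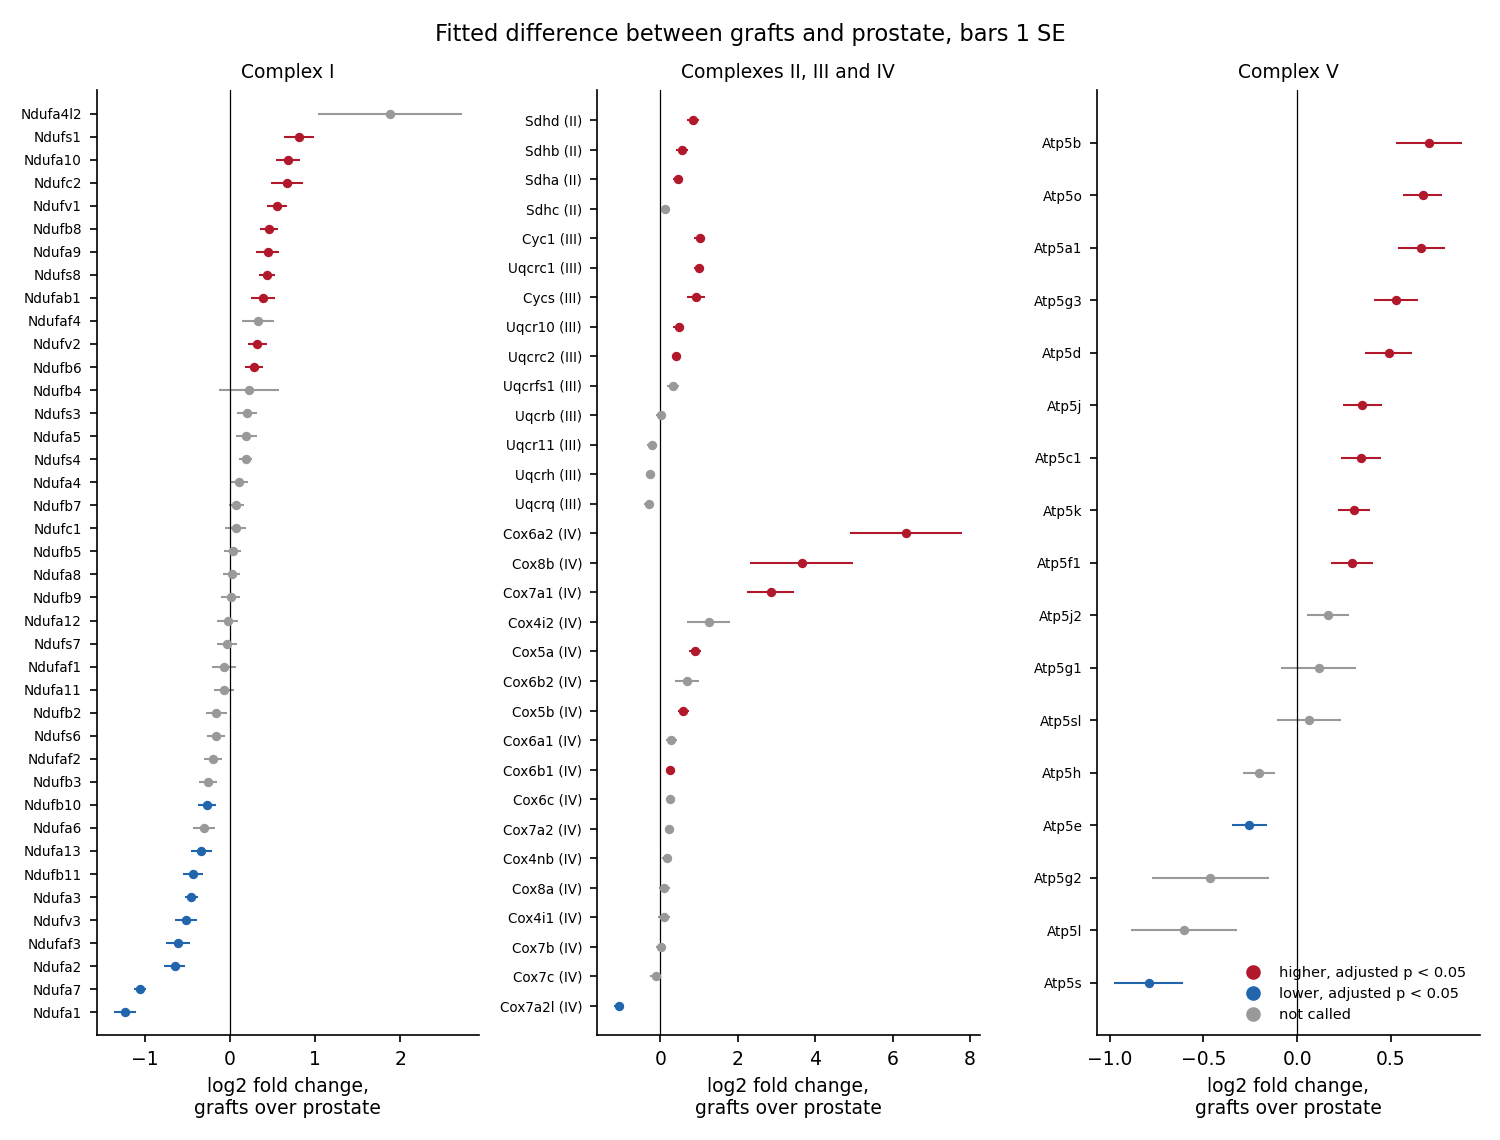
Fitted log2 fold change between the grafts (5) and prostate (6) for the members tested, apart from 1 that is not reported (horizontal axis, with its own scale in each panel; bars 1 SE), sorted within each complex, with genes called at an adjusted p under 0.05 in color. The higher genes of complex I are led by Ndufs1 at 0.81 and the lower ones by Ndufa1 at -1.23, while complexes II and III have no lower gene; Cycs and Ndufab1, drawn as higher, change sign after quantile normalization.

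The differences were then set beside the length of the coding sequence (GENCODE M1). Of 21 structural genes with a coding sequence over 600 bases, 17 were higher in the grafts than in prostate and 1 was lower, Ndufv3, where 32.5% of all genes of 600 to 2400 bases were higher and 23.1% lower. Of 59 with up to 600 bases, 17 were higher and 8 lower, where 28.6% and 29.8% of all genes of that length were. Up to 300, 600, 1200 and 2400 bases in turn, the median graft difference from prostate was 0.11, 0.08, 0.39 and 0.66 over 21, 38, 12 and 9 structural genes, and 0.01, -0.00, 0.17 and 0.14 over all genes of these lengths. The higher 2 classes hold under 20 members each. Between prostate and MEFs the medians went down with length, from 0.96 through 0.76 and 0.38 to 0.00, and those of all genes also went down, from 0.83 through 0.49 and 0.31 to 0.12. Grafts against MEFs gave 0.99, 0.84, 0.82 and 0.68, with 0.82, 0.47, 0.43 and 0.23 for all genes. A trend with length in all genes therefore moved with both comparisons against MEFs, and its part in the members' differences was not tested. Without FS008, 17 of the longer genes were still higher than in prostate and 1 lower, and 16 of the shorter ones were higher and 13 lower. The shares of all genes by length were not taken for that fit.

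**Figure D3:**
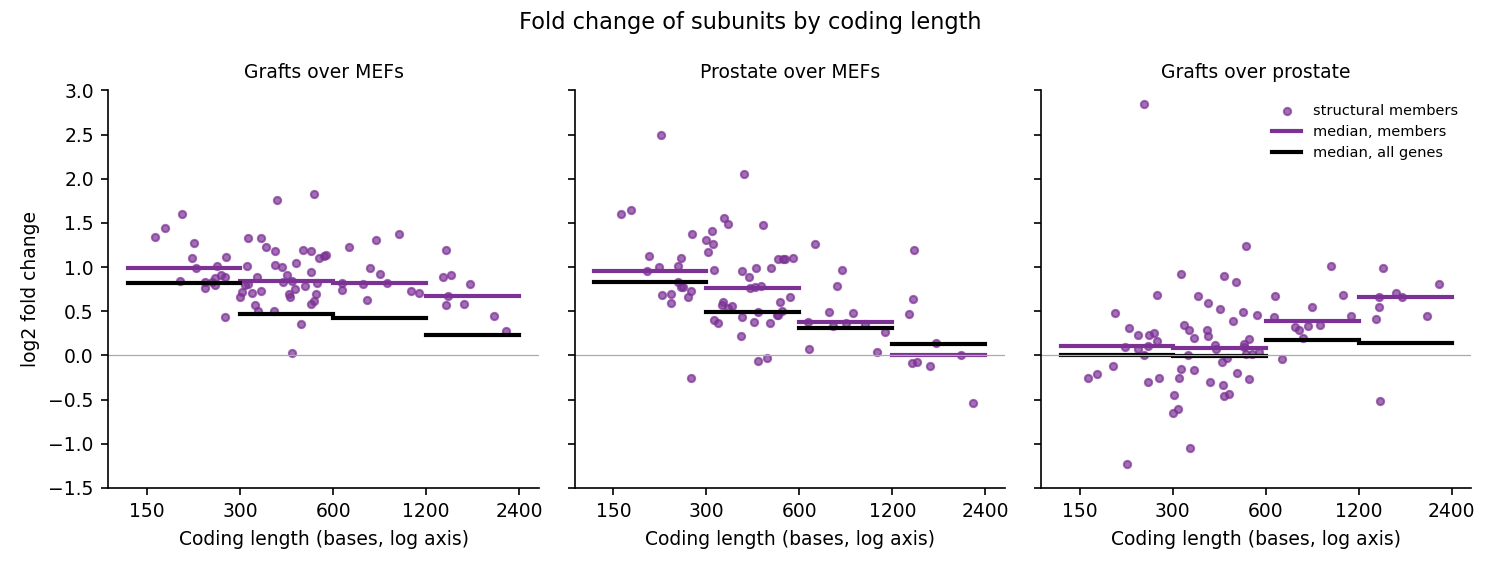
Log2 fold change of each structural member (points) against the length of its coding sequence in bases (log axis), for the 3 comparisons, with the median in each length class for members and for all genes tested. Members above a log2 fold change of 3 (the muscle genes Cox6a2, Cox7a1 and Cox8b in the left panel, Cox6a2 and Cox8b in the right) lie outside the drawn range; the median of the members goes down with length for prostate over MEFs, from 0.96 to 0.00, and is 0.66 in the longest class for grafts over prostate.

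The kidney transcript Slc34a1, a phosphate transporter of the proximal tubule, was 13.24 in FS002, 7.19 in FS003, 14.72 in FS005, 10.44 in FS007 and 15.21 in FS008, and 12.45 and 8.28 as deposited in FS022 and FS023. Prostate reached at most 4.32 and MEFs at most 2.48. The muscle creatine kinase transcript Ckm had another order, with 13.25, 11.98, 11.41, 4.84 and 2.99 in the grafts, 11.17 and 9.80 in FS022 and FS023 and 7.54 to 8.97 in prostate. FS008 was thus the graft with the most Slc34a1 and the least Ckm.

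FS008 had the highest value of the 5 grafts for 64 of 89 members (71.9%), beside 21.5% of all genes. These were 4 of 4 genes of complex II, 10 of 10 of complex III, 27 of 41 of complex I, 9 of 17 of complex IV and 14 of 17 of complex V. Its median difference from the mean of the other grafts was 0.46. FS007 was the lowest graft for 37 members (41.6%, beside 26.6% of all genes) and FS003 for 27 (30.3%, beside 15.8%). The median difference of the members from the prostate mean was 0.51 in FS008, 0.14 in FS005, 0.12 in FS002, 0.11 in FS007 and 0.05 in FS003. The order of these member medians was that of Slc34a1 in the 5 grafts. The step from FS008 to the next graft was 0.51 to 0.14, while Slc34a1 went from 15.21 to 14.72. Over all genes the median difference was 0.04 in FS008, 0.13 in FS005, 0.12 in FS002, 0.05 in FS007 and 0.14 in FS003. In the grafts other than FS008, the members thus ran from 0.05 to 0.14, and all genes also from 0.05 to 0.14. The order of Ckm was another one, with FS002 highest and FS008 lowest. The mean over the 75 members kept FS008 on top but had FS007 lowest. The part of kidney RNA in these levels was not tested, and with 5 grafts in a table no correlation was computed. In the second table FS022 had more Slc34a1 than FS023, with 12.45 against 8.28, and the lower member mean.

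**Figure D4:**
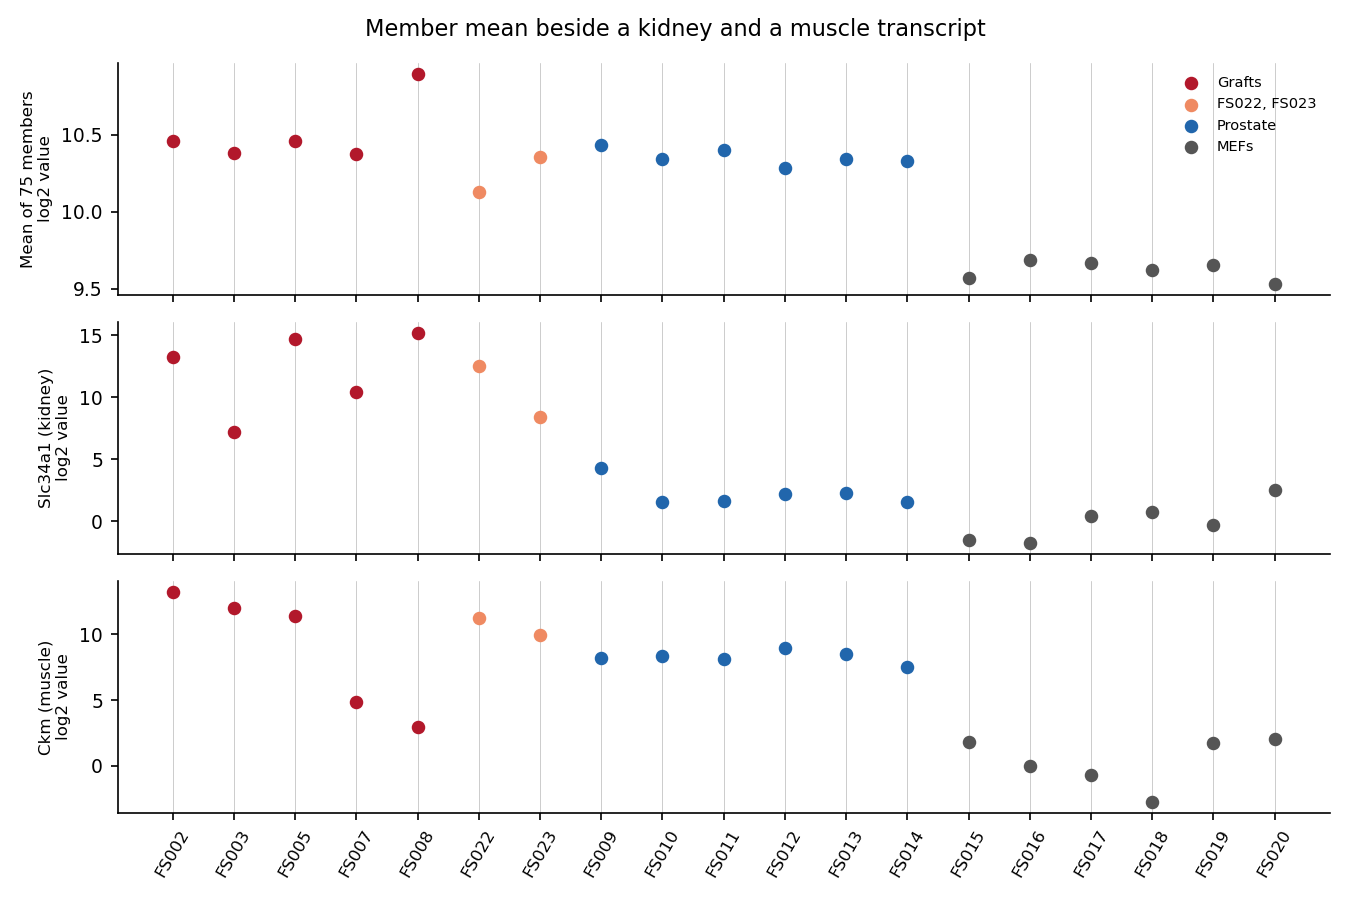
Mean log2 level of the 75 ubiquitous members, of Slc34a1 (kidney) and of Ckm (muscle) in each of the 19 samples; each panel has its own vertical axis, and FS022 and FS023 are shifted to the scale of the first table. FS008 has the highest member mean, 10.90, with the highest Slc34a1 and the lowest Ckm of the grafts, while FS005 has a member mean of 10.46 with Slc34a1 at 14.72.

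The counts against prostate rested in part on these grafts. Without FS008, 34 members were higher and 17 lower, beside 33.5% and 25.0% of all genes in that fit, the median was 0.11, beside 0.11 for all genes, and complex III had 5 higher and 3 lower. Without FS002, FS005 and FS008, the 3 grafts with the most Slc34a1, 20 were higher and 15 lower, beside 25.8% and 21.2% of all genes. The median was 0.05, beside 0.07 for all genes. Without FS002, FS003 and FS005, the 3 with the most muscle RNA among these 5, 38 of 87 tested were higher and 12 lower, beside 29.1% and 28.1% of all genes. The median was 0.28, beside 0.02 for all genes. Against MEFs the corresponding counts were 73 higher and 1 lower without the first 3 (32.05% and 22.4% of all genes) and 80 and 0 without the others (34.8% and 27.2% of all genes). These sets of grafts were chosen after seeing the data.

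The complex IV forms of striated muscle were high in the same 3 grafts as the skeletal muscle markers. Cox6a2 (NCBIM37 chr7:135348950-135349880, minus strand) was 9.26, 9.02 and 9.06 in FS002, FS003 and FS005, 4.26 in FS007 and 2.54 in FS008. Prostate ranged from -1.71 to 4.09, with 1 of 6 samples above 3 reads, and MEFs from 1.01 to 3.87. The fitted difference from prostate was 6.34 (SE 1.45), a value that depends on levels near 0. Cox8b was 8.28, 7.86 and 7.96 in the same 3 grafts and 1.69 and 1.72 in FS007 and FS008, which lay below 3 reads. Its fitted difference from prostate was 3.65, which did not pass the exact permutation test (p = 0.0693). No MEF sample rose above 3 reads for Cox8b, so no fold against MEFs is given for it. Cox6a2 and Cox8b passed the filter on low values only through these 3 grafts, so their calls in limma are not read as support. Cox7a1 was 7.98, 7.78, 8.64, 4.51 and 6.90 in the grafts and 4.12 to 4.70 in prostate, a difference of 2.84 (SE 0.61, adjusted p = 0.00224 in limma; exact permutation p = 0.013). In FS008 it stood at 6.90 while Ckm was 2.99.

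Per transcript length, the muscle form Cox6a2 made up 13.4% of Cox6a1 and Cox6a2 together in FS002 (95% exact binomial interval 12.6% to 14.2%) and 11.8% in FS005, with FS003 between them. It made up 0.371% in FS007 and 0.0668% in FS008. In FS023 the share was 4.01%, and in FS022 it was below the floor of 0.442% that 3 reads give. Prostate had 1 sample above the floor, FS012, at 0.449%. Cox8b made up 11.4%, 9.69% and 10.2% of Cox8a and Cox8b in FS002, FS003 and FS005, 2.67% in FS023 and less than the floor in FS007, FS008 and FS022. Cox7a1 made up 21.2%, 20.4%, 30.4%, 2.27% and 7.95% of Cox7a1 and Cox7a2 in the 5 grafts, 1.55% and 8.90% in FS022 and FS023, 1.85% to 3.24% in prostate and 1.30% to 2.49% in MEFs. FS022 stood out by having the muscle transcripts Ckm at 11.17 and Acta1 at 16.10 without Cox6a2 or Cox8b above the floor. Read numbers of low genes are estimates, and the intervals and floors cover counting error only.

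**Figure D5:**
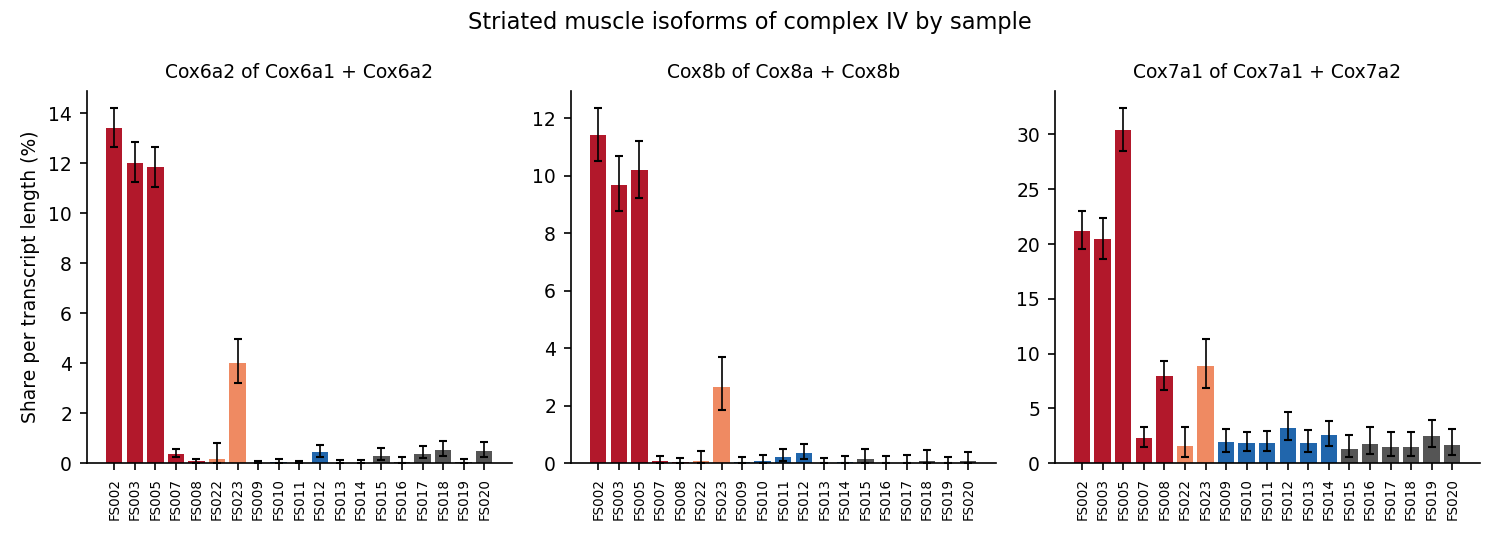
Share of the striated muscle form in each pair of complex IV genes (vertical axis, percent per transcript length, from 0) in each sample, with 95% exact binomial intervals; colors show grafts, FS022 and FS023, prostate and MEFs in that order. FS002, FS003 and FS005 hold 9.69% to 30.4% of the muscle form, and the samples of prostate and MEFs lie at or below 3.24%.

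Other paired genes gave weaker signals. Cox4i2, the lung and hypoxia form of Cox4, was 5.71, 5.62, 4.54, 3.84 and 2.93 in the grafts and 2.66 to 4.02 in prostate, without passing (1.24, adjusted p = 0.0745 in limma). Its difference from MEFs, 1.83, changed sign to -1.16 after quantile normalization. Ndufa4l2, a gene induced by hypoxia, ran from 3.24 in FS007 to 8.80 in FS002 and overlapped prostate (1.88, adjusted p = 0.0781 in limma). Cox6b2, a testis form, did not pass in any comparison (0.43, -0.25 and 0.69). Cox7b2 and Cox8c, further testis forms, and the complex I gene Ndufs5 were above 3 reads in 1 of 19 samples each and were not tested. Of the Ndufs5 transcript, 53.9% of the 32-base words occur elsewhere. In the membrane ring of complex V, Atp5g3 was higher in grafts than in prostate by 0.53, while Atp5g1 stood at 0.12 and Atp5g2 at -0.46. Over 50% of such words were found elsewhere for 9 members, and under 10% for 55.

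Among the regulators, Ppargc1a, which encodes PGC-1alpha, was 8.87, 8.73, 9.05, 10.60 and 10.97 in the grafts, 7.28 to 7.62 in prostate and 3.69 to 5.16 in MEFs. The 3 groups did not overlap, and FS007 and FS008 were the highest. The difference between grafts and prostate was 2.29 (SE 0.39, adjusted p = 0.000493 in limma). Esrra, which encodes ERRalpha, was higher in the grafts by 1.00 than in prostate and by 2.00 than in MEFs. Tfam, needed for mitochondrial DNA transcription, was higher than in prostate by 0.35 and Nrf1 by 0.32 (adjusted p = 0.0105 and 0.04 in limma). Against MEFs, the genes of GABPA, YY1 and NRF1 had no higher mean in the grafts or in prostate. Gabpa stood at -0.72 in the grafts and -0.77 in prostate, Yy1 at -0.18 and -0.28, and Nrf1 at -0.003 and -0.32. Between grafts and prostate, Gabpa and Yy1 differed by 0.04 and 0.10. Of the 16 tested genes of the biogenesis list, 6 were higher and 1 lower than in prostate, with a median of 0.28. Of all genes, 31.3% were higher and 24.3% lower, so the higher count was not far from that share. Against MEFs, 8 were higher and 3 lower in the grafts, beside 40.2% and 25.4% of all genes. In prostate, 7 were higher and 7 lower than in MEFs, beside 44.9% and 35.9%. The brown fat gene Ucp1 lay at or near the floor in all groups, from -1.65 to 3.79.

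The neighbouring pathways were not all arranged like the respiratory chain. Their counts stand beside these shares of all genes. Between grafts and prostate, 31.3% were higher and 24.3% lower. Against MEFs, 40.2% were higher and 25.4% lower in the grafts, and 44.9% and 35.9% in prostate. Of 17 genes of the TCA cycle and pyruvate dehydrogenase, 12 were higher in the grafts than in prostate and 0 lower. Against MEFs, 10 were higher and 0 lower in the grafts, and 7 were higher and 6 lower in prostate. Citrate synthase (Cs) was lower in prostate than in MEFs by -0.61 and higher in the grafts than in prostate by 0.55, with FS007 and FS008 at 13.14 and 13.18 and the other grafts at 12.24 to 12.40. Of 19 glycolysis genes, 14 were lower and 1 higher in prostate than in MEFs, and 12 were higher and 0 lower in the grafts than in prostate. Between grafts and MEFs, 5 were higher and 3 lower. Ldhb, the heart form of lactate dehydrogenase, which kidney also uses, was 11.97, 10.52, 12.09, 10.65 and 12.66 in the grafts against 7.58 to 9.07 in prostate, a difference of 3.55 (SE 0.41, adjusted p = 3.17e-05 in limma). Among 25 assembly factors, 4 were higher and 5 lower in the grafts than in prostate, while against MEFs 13 were higher and 3 lower in the grafts and 13 higher and 7 lower in prostate. The hexokinases Hk1 and Hk2 and Pdha1 of pyruvate dehydrogenase did not pass, at 0.59, 0.52 and 0.29.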

How the data were processed

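Total RNA libraries were prepared with TruSeq kits. Per the labels and the study's methods, the authors demultiplexed reads with bcl2fastq 1.8.4, used TopHat and Cufflinks with mm9 and normalized raw counts with DESeq. The authors deposited log2 values in 2 separately normalized tables, and how these were put on the log2 scale is not given in the sources used here. Values were used as deposited. A sample's read numbers were estimated with a linear offset of 1.611 found from the values, which gave whole reads, within 0.05, for values of 11.5 to 15, and scatter below, so no count test was run. The groups were compared in pairs within the first table with limma 3.58.1 (R 4.3.3, eBayes with trend) after leaving out genes whose mean on the linear scale was under 10, with Benjamini-Hochberg adjustment over all of them. Single genes also had a two-sided exact permutation test. The procedure was checked on simulated data. The second table was shifted by the median difference over 10188 genes above 5 in every sample. Alternatives covered the filter, scaling, fit, members and left-out samples. The members and gene lists were chosen with earlier results of these data known. Named were, per comparison and complex, the 2 largest called changes in each direction, fixed catalytic subunits, isoform pairs, rows that are not structural and fixed markers, with a few other called genes added after their values were seen. A total of 25 gene names that read as dates or had no match between tables were not used. A gene among the members is not reported by name here, though the counts and medians include it.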

Additional observations from a re-analysis of the deposited data

Results flagged for a closer look

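Of 145 sets of values in grafts, prostate or MEFs, 13 held a sample with a large gap for the group's range (Dixon's test). FS008 was that sample in 9 of the 13. At 1 in 20, chance would give about 7.2 such sets. The sets are not independent, since the means of complexes and of all 75 ubiquitous members contain genes tested singly. Setting 13 against 7.2 therefore does not measure an excess over chance. The mean of complex III was 11.33 in FS008 and 10.55 to 10.67 in the other grafts, that of complex IV 11.37 against 10.78 to 10.95, that of complex V 11.15 against 10.64 to 10.66, and that of all 75 ubiquitous members 10.90 against 10.38 to 10.46. Of single genes, FS008 stood above the other grafts for Uqcrc1 (12.95 against 12.32 to 12.36), Atp5g3 (13.13 against 12.47 to 12.58), Cox6b1 (12.04 against 11.57 to 11.64), Cox7a2 (11.45 against 10.78 to 10.92) and Cox7b (11.51 against 10.86 to 10.96). FS008 also had the highest kidney marker mean, 12.61, and the lowest skeletal muscle marker mean, 4.40, of the 5 grafts, and the part of either in these values was not tested.

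In prostate, FS009 had more of the kidney transcript Slc34a1 (4.32 against at most 2.24) and of Ppargc1a (7.62 against 7.28 to 7.32) than the other 5 samples. FS012 was lowest for Cox7a2 (10.58 against 10.75 to 10.82) and FS014 for Ndufaf2 (7.71 against 7.80 to 7.86).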

How the results depend on the processing

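A minimum log2 fold change of 1 left 30 of the 83 members called between grafts and MEFs (30 higher, 0 lower), 25 of 74 between prostate and MEFs (25 higher, 0 lower) and 7 of 46 between grafts and prostate (4 higher, 3 lower). Members with under 10% of their 32-base words elsewhere gave 48 calls (47 higher) between grafts and MEFs and 42 (40 higher) between prostate and MEFs, being fewer genes. The lower count between grafts and MEFs was 6 after quantile normalization and 0 without FS015 to FS018, with MEF pairs averaged, without FS002, FS003 and FS005, and over structural subunits. Between prostate and MEFs it was 5 after quantile normalization and 1 over structural subunits. Without FS002, FS005 and FS008, 20 members were higher in grafts than in prostate. Without FS015 to FS018, 21 of the pathway genes were called between grafts and MEFs instead of 45. Leaving out single libraries moved no count over all members past 1.5 times. In smaller groups against prostate it did. Complex III had 3 lower genes instead of 0 without FS008. Lower structural genes of up to 600 bases were 13 without FS008 and 5 without FS007, FS009, FS011 or FS014, instead of 8. Complex V had 1 lower gene instead of 2 without FS005, FS007, FS009, FS010, FS011 or FS014. Lower assembly factors were 3 instead of 5 without FS011, FS012 or FS014, and lower biogenesis genes ranged from 0 to 3 instead of 1. Higher glycolysis genes in prostate against MEFs were 2 instead of 1 without FS016, FS019 or FS020.

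Quantile normalization shifted the median of all genes by -0.45, -0.18 and -0.24 (grafts and prostate against MEFs, grafts against prostate), and the members' medians exceeded those of all genes by 1.16, 0.66 and 0.29. It reversed Atp5l (-1.99), Ndufb4 (-1.54), Cox4i2 (-1.16), Ndufab1 (-0.69), Cycs (-0.54), Cox7c (-0.53) and Ldha (0.40) for grafts against MEFs, Cox7a1 (-0.50), Cycs (-0.38) and Ndufb4 (-0.21) for prostate against MEFs, and Ndufab1 (-0.30) and Cycs (-0.17) for grafts against prostate. The cause was not tested. Of 226 calls of single genes, 167 kept their direction and side of the threshold under every alternative run. No paired analysis was possible because the labels number no sample across groups and grafts, prostates and MEFs are separate samples.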
